A study of Mus musculus with 4 samples.

Results

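Choroid plexus spots were the capture spots of 4 mouse brain sections in which 5 genes of the choroid plexus epithelium, Folr1, Kcnj13, Sostdc1, Kl and Clic6, summed to at least 3 UMIs. A UMI, or unique molecular identifier, is a barcode that lets copies of the same captured mRNA molecule be counted as 1. The members were selected on these measured values, so the 5 genes are described here and were not tested against other spots. There were 73 member spots of 10940 over tissue. Trained 1 held 31 of 2865 spots, trained 2 held 12 of 3055, untrained 1 held 8 of 2359 and untrained 2 held 22 of 2661, and values for the 4 sections are given below in that order. Each section came from its own male mouse, 2 trained and 2 untrained, and the section was taken as the replicate. P-values therefore rest on the spread between sections. In most comparisons, named under processing, that spread was a trend taken over genes and not each gene's own.

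All 4 mice carried ArcCreERT2::eYFPflx on a C57BL/6 background and were 3 to 4 months old. Cre in this line sits under the promoter of Arc and needs tamoxifen, so that eYFP marks cells with active Arc at the time of injection, and every mouse received 4-hydroxytamoxifen before the retention test. Trained mice learned to avoid a shock zone on a rotating arena, untrained mice met the same arena without shock, and tissue was taken 3 days after the retention test. Polyadenylated RNA was captured on Visium slides, whose spots each cover several cells of possibly different types, from coronal sections 10 µm thick through the dorsal hippocampus, which the labels name as the tissue. The choroid plexus lies outside the hippocampus proper, in the ventricle beside it.

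The choroid plexus is a folded sheet of epithelium in the brain ventricles, wrapped around leaky capillaries, stroma and resident macrophages. Its epithelial cells pump ions and water to make cerebrospinal fluid, carry thyroid hormone, folate and metals between blood and brain, and secrete proteins into the fluid. Transthyretin, encoded by Ttr, is their best known secreted product and binds thyroid hormone and retinol-binding protein. Ependymal cells line the same ventricles with motile cilia, and meningeal fibroblasts lie at the outer surface of the brain, so both can fall near choroid plexus on an array.

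Sections differed in depth and in the number and grouping of their member spots. The 4 sections had between 3560294 and 10330015 UMIs, and member spots had median totals of 2898, 5327.5, 2429 and 3441.5, against 1926, 2482, 1045 and 1844 in all other spots. The array uses the same barcodes on every slide, and 1330 barcodes were over tissue in all 4 sections. Trained 2 stood apart. Its 12 members fell into 7 separate patches, 5 of which were lone spots, whereas the largest patch was 16 spots in trained 1, 8 in untrained 1 and 16 in untrained 2. In 4 of the lone spots of trained 2, Ttr had 1 to 3 UMIs among 7227 to 13647 UMIs of the spot, so the label of choroid plexus was not borne out there. A further 2 lone spots, both in untrained 2, had 2 and 7 Ttr UMIs. The other 67 members held at least 36 Ttr UMIs each. The Ttr share and its profile over distance, the check of identity, the mitochondrial genes and the training difference are therefore also given with members kept only where they touch another member (29, 7, 8 and 19 spots), a choice made after the values were seen.

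**Figure D1:**
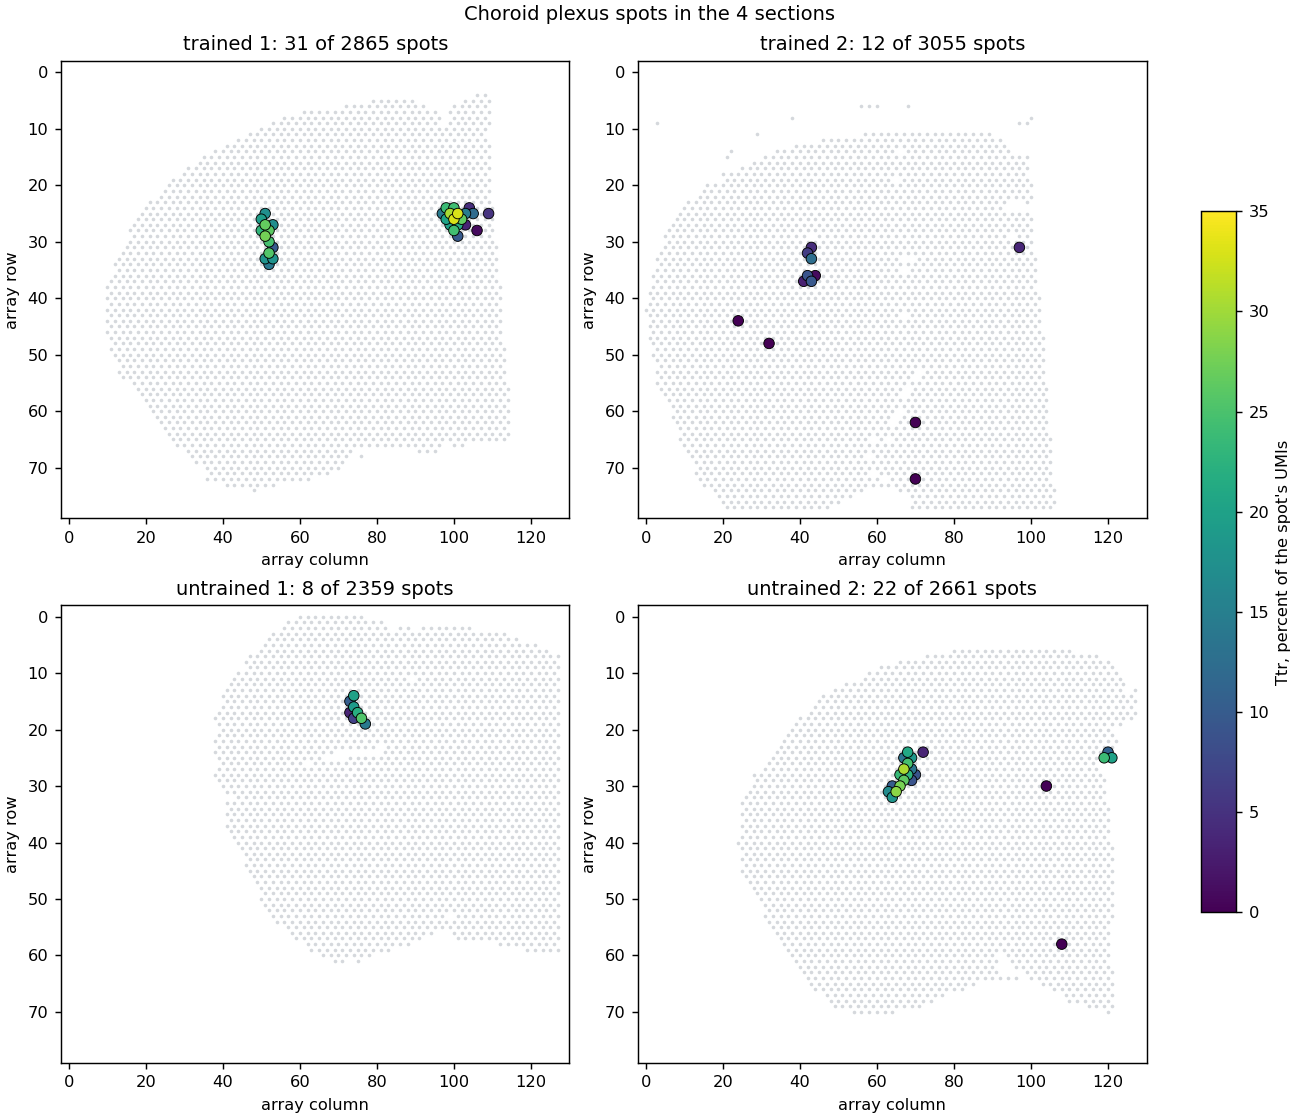
Array row against array column (no unit) for each section, with all spots over tissue in grey and choroid plexus spots colored by Ttr as a percentage of the spot's UMIs. Most members of trained 1, untrained 1 and untrained 2 lie in patches of up to 16 spots, with 2 lone spots in trained 1 and 3 in untrained 2, while trained 2 has 2 small patches and 5 lone spots, 4 of them with 1 to 3 Ttr UMIs.

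The rule genes themselves were unequal in abundance. Kl, which encodes the Klotho coreceptor for fibroblast growth factor signaling, gave the largest part of the rule's UMIs, with 140, 24, 28 and 80 in the members of the 4 sections. Clic6, a chloride channel family gene, gave 72, 22, 15 and 62. Sostdc1, a secreted antagonist of BMP and Wnt signaling, gave 52, 8, 7 and 30. Folr1, the folate receptor that carries folate into the fluid, gave 36, 2, 9 and 35, and Kcnj13, an inward rectifier potassium channel, gave 23, 5, 4 and 29. Kl and Clic6 together gave most of the rule's UMIs in every section. In trained 2, 5 of the 12 members, the lone spots, had UMIs of no rule gene but Kl and Clic6.

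Just inside and just outside the threshold, Ttr differed in level. At 3 UMIs of the rule genes there were 7, 5, 1 and 6 spots, with median Ttr levels of 141455, 323, 34715 and 62036 CPM (UMIs per 1000000 UMIs of the spot). At 2 UMIs, which is outside the rule, there were 30, 14, 9 and 18 spots, with medians of 9590, 658, 2622 and 2097 CPM. Trained 2 was the section in which the spots inside did not exceed those outside. The 5 spots of trained 2 at 3 UMIs had a median of 7227 UMIs in all, against 1732 in trained 1 and 1795 in untrained 2, and the part of depth was not tested.

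Ttr, which the rule did not use, was the most abundant transcript of choroid plexus spots in every section. It made up 18.7%, 2.89%, 16.2% and 20.3% of all UMIs of the members, and 0.216%, 0.0301%, 0.144% and 0.202% of the UMIs of all other spots. Every member level lay above every level elsewhere, and trained 2 was the lowest on both sides. Expressed per section, the members held 61.1%, 41.1%, 40.6% and 62.0% of all Ttr UMIs. With members that touch another member the shares were 21.5%, 6.67%, 16.2% and 21.9%. Within single sections Ttr was 86.9-fold to 113-fold higher in members than elsewhere, and the fit gave a log2 difference of 6.57 ± 0.31 (SE, edgeR, 8 sums, adjusted p = 5.44e-95).

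Among single spots Ttr was higher where the rule genes were strongest than at the threshold. Members with 10 or more UMIs of the rule genes had median Ttr shares of 26.5%, 10.99%, 16.6% and 23.9% in the 4 sections, and those with 3 UMIs had 14.1%, 0.0323%, 3.47% and 6.204%. The order held in every section, though untrained 1 had 1 spot at 3 UMIs and trained 2 had 2 spots at 10 or more. Spots of 1 section are not replicates, so these are descriptions. The 63 members that touched another member had a median of 18.6%, and the 10 lone members a median of 0.152%. Lone members were also deeper, with a median of 7905.5 UMIs against 3006. They carried more of a list of 12 neuron genes, at 7051 CPM against 2962 CPM over the summed UMIs. The 2 patches of trained 2, of 4 and 3 spots, had 5.10% and 8.02% Ttr, and a list of 10 oligodendrocyte genes made up 25476 and 14270 CPM there, against 1358 and 4991 CPM in the patches of 16 and 13 spots of trained 1. What part these transcripts had in the low share of Ttr was not tested.

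**Figure D2:**
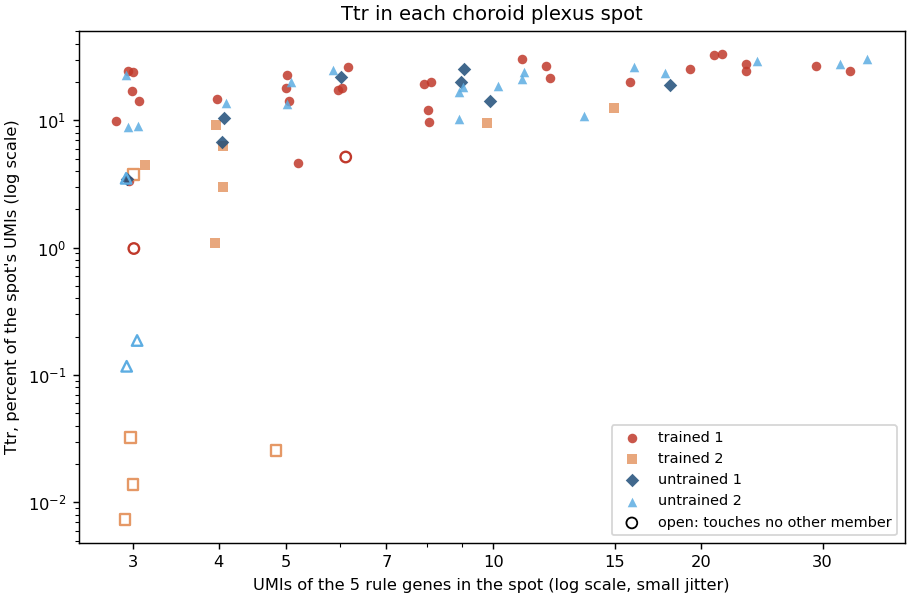
Ttr as a percentage of the UMIs of each member spot (log scale) against the UMIs of the 5 rule genes in that spot (log scale, with a small jitter), 1 point per spot, colored by section and open where the spot touches no other member. Spots with 10 or more rule UMIs lie between 9.45% and 32.9%, and the 6 spots with the least Ttr, at most 0.187%, are all lone members.

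Ttr extended beyond the member spots and fell with distance, apart from small rises at 3 steps in trained 2 and from 21 steps on in untrained 1. One array step away, its level over the summed UMIs was 26991, 5683, 55312 and 15345 CPM, which was 14.4%, 19.7%, 34.1% and 7.54% of the level in members. At 2 steps it was 7821, 598, 8856 and 5489 CPM, and at 4 to 6 steps 2392, 226, 1767 and 2252 CPM. From 21 steps on it was still 1151, 101, 1183 and 1306 CPM, with a Ttr UMI in 86.2%, 13.5%, 64.1% and 91.0% of these spots. The section with the lowest Ttr in its members, trained 2, was also the lowest at every distance. Its far value came from 104 spots, counted from lone members too. Measured from members that touch another member, trained 2 had 66675 CPM in members, 12777 CPM at 1 step, 139 CPM at 7 to 10 steps, 148 CPM at 11 to 20 steps and 278 CPM from 21 steps on, so its lowest level was not the farthest one, with a Ttr UMI in 30.4% of 1604 far spots. It was still the lowest section at each of these distances. Whether these UMIs came from cells of the spots themselves or from RNA that left the members was not tested.

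Enpp2, which encodes autotaxin, a secreted enzyme that makes lysophosphatidic acid, fell less steeply. Its level was 12629, 3188, 8694 and 13299 CPM in members, 2108, 1016, 3462 and 1164 CPM at 1 step and 174, 101, 200 and 146 CPM from 21 steps on. The number of Ttr UMIs for each Enpp2 UMI was 14.8, 9.05, 18.7 and 15.3 in members and fell to 6.63, 5.91 and 8.96 from 21 steps on in trained 1, untrained 1 and untrained 2 and to 1 in trained 2. With members that touch another member, Enpp2 in trained 2 was 6677 CPM in members and 212 CPM from 21 steps on, where it was no longer below the other sections (174, 200 and 173 CPM), and the Ttr UMIs for each Enpp2 UMI were 9.99 and 1.32. Enpp2 is also expressed by oligodendrocytes, and the source of its UMIs far from the ventricles was not tested.

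**Figure D3:**
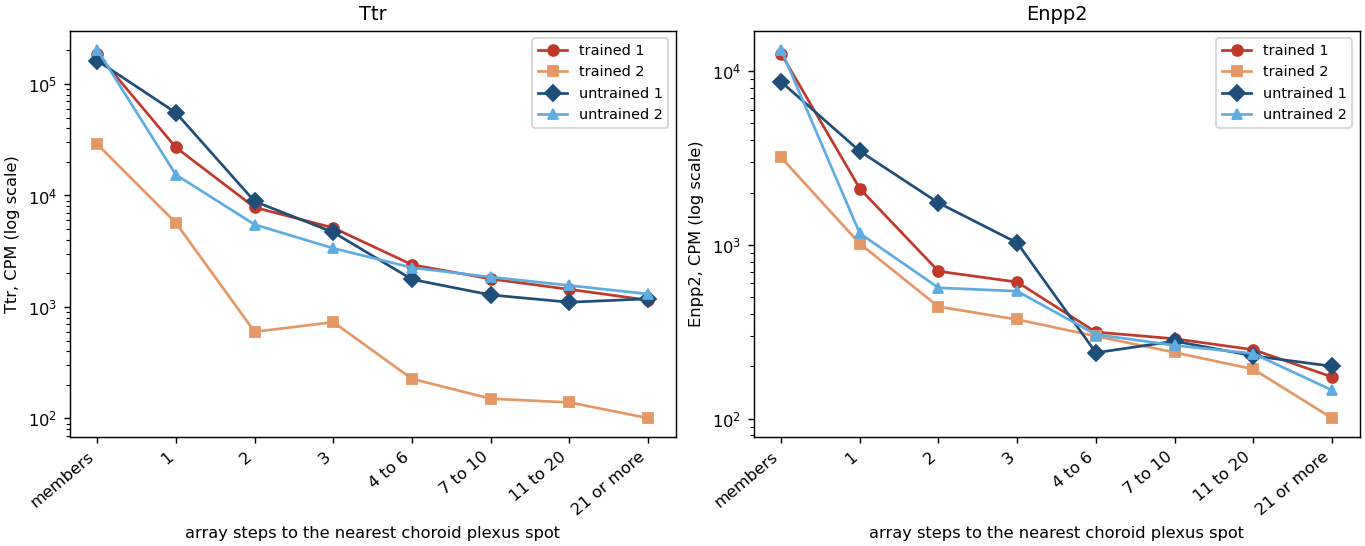
Ttr (left) and Enpp2 (right) in CPM over the summed UMIs of all spots at each distance (log scale), against array steps to the nearest choroid plexus spot, 1 line per section. Ttr falls from between 28852 and 203419 CPM in members to between 101 and 1306 CPM at 21 or more steps, and trained 2 has the least Ttr throughout.

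The identity of the spots was checked on 20 choroid plexus genes that the rule did not use, and all 20 were called higher than in all other spots. The list was drawn up with earlier results of these data known, so it is not an independent check. Across all genes, edgeR called 1038 of 11318 tested (9.17%), 460 higher (4.06%) and 578 lower (5.11%) in choroid plexus spots. DESeq2 called 383 higher and 168 lower, so the excess of lower calls was not kept. EdgeR called 221 higher and 232 lower without trained 1, and 224 higher and 200 lower without untrained 2. The median log2 difference of the 20 genes was 5.40, against -0.17 over all genes tested. For 19 of the 20 every member level lay above every level elsewhere. The exception was Prlr, the prolactin receptor, with 0 UMIs in the members of untrained 1. All 20 were also called without trained 2 (median 5.63) and in members that touch another member (median 5.60).

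**Figure D4:**
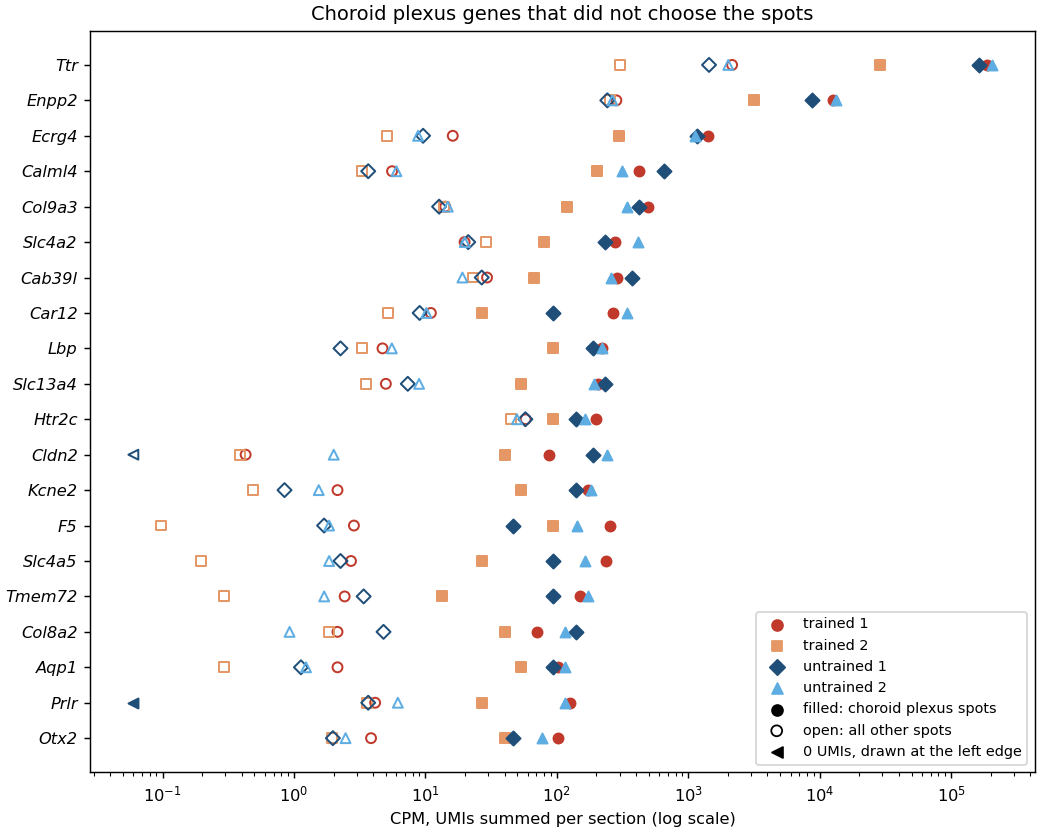
CPM of the 20 choroid plexus genes that did not choose the spots (log scale), summed per section, with filled symbols for choroid plexus spots, open symbols for all other spots and left-pointing triangles at the edge for 0 UMIs. Filled symbols lie to the right of open ones for 19 genes, and trained 2 (orange squares) is the lowest member sum for 18 of them.

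Of 13 listed genes for carrying thyroid hormone, retinol and other signals 11 could be tested, and 6 were called higher, Ttr among them, with 0 lower. This list and several that follow share genes with the 20 above, so their counts are not separate results. Of all genes tested 4.06% were called higher. Rbp4, the plasma partner of transthyretin, had 5 UMIs in all members together and was not called. Slco1c1, a thyroxine transporter, stood at 190, 80.4, 93.5 and 191 CPM against 30.6, 32.7, 24.9 and 32.6 CPM and rose by 2.33 on the log2 scale (adjusted p = 2.78e-10, edgeR). Htr2c, a serotonin receptor that neurons also express, stood at 198, 93.8, 140 and 163 CPM against 44.6 to 57.9 CPM and rose by 1.60 ± 0.31 (log2, SE).

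Of 15 listed genes for ion and water transport 14 could be tested, with 10 called higher and 1 lower. Aqp1, the water channel of the ventricle-facing membrane, stood at 103, 53.6, 93.5 and 115 CPM in members against 2.14, 0.293, 1.13 and 1.24 CPM elsewhere, a pooled 86.1-fold difference. Slc4a5, a sodium bicarbonate cotransporter, rose by 6.39 ± 0.48, and Kcne2, a potassium channel subunit, by 6.73 ± 0.48 (log2, SE). Trpv4, a calcium-permeable osmosensor, had 86.0 to 93.5 CPM in 3 sections and 53.6 CPM in trained 2, and rose by 5.61 ± 0.53 (adjusted p = 1.86e-23, edgeR). Slc12a2, the cotransporter NKCC1, and Car2, a carbonic anhydrase shared with oligodendrocytes, rose by 1.94 ± 0.28 and 0.89 ± 0.22 (log2, SE). The Car2 call was lost without trained 1, without untrained 2 and at a threshold of 5 UMIs.

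Subunits of the sodium pump went both ways. Fxyd1, its regulatory subunit phospholemman, stood at 490, 147, 748 and 698 CPM in members against 73.4, 84.8, 72.3 and 85.1 CPM elsewhere and rose by 2.59 ± 0.24 (SE, adjusted p = 1.58e-24, edgeR). Atp1b1, a beta subunit that neurons express strongly, stood at 1463, 1420, 1215 and 1310 CPM against 2208, 2309, 1951 and 1925 CPM and fell by 0.64 on the log2 scale (adjusted p = 0.0182, edgeR). Levels of both subunits did not overlap between members and other spots. The Atp1b1 call was lost with DESeq2 (adjusted p = 0.110), with a threshold of 5 UMIs, and without trained 1, trained 2 or untrained 2.

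Of 16 genes for nutrient and metal transport 14 could be tested, with 7 called higher and 0 lower. Slc2a12, a sugar transporter, stood at 142, 80.4, 140 and 105 CPM in members against 2.54 to 4.29 CPM elsewhere and rose by 5.10 ± 0.47 (log2, SE). Slc31a1, the copper transporter CTR1, rose by 3.22 ± 0.41 with levels of 221, 26.8, 46.7 and 153 CPM against at most 16.2 CPM, so that trained 2 stood closest to the rest of the tissue. Slc29a4, a monoamine transporter, rose by 2.95 ± 0.42 (log2, SE). Trf, the iron carrier transferrin, which oligodendrocytes also make, stood at 577, 670, 654 and 1319 CPM in members and 260 to 395 CPM elsewhere and rose by 1.32 ± 0.21 (adjusted p = 2.00e-08, edgeR). The metallothioneins Mt1 and Mt2 were not called, with log2 differences of 0.19 ± 0.20 and 0.19 ± 0.24 (SE).

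Secreted factors were called higher for 12 of 15 genes, all of which could be tested. Igfbp2, a binding protein for insulin-like growth factors, stood at 1020, 281, 1449 and 1233 CPM in members and 32.0 to 41.5 CPM elsewhere and rose by 4.51 ± 0.23 (SE, adjusted p = 1.41e-81, edgeR). Its ligand Igf2 stood at 538, 107, 467 and 746 CPM against 14.0 to 34.4 CPM and rose by 4.14 ± 0.27. Ecrg4, which encodes a secreted peptide precursor, stood at 1423, 295, 1168 and 1119 CPM against 5.07 to 16.2 CPM and rose by 6.58 ± 0.26. Clu, the chaperone clusterin that astrocytes also secrete, stood at 2222, 1862, 2664 and 2419 CPM against 837 to 945 CPM, and trained 2 lay closer to the other sections than it did for the 3 factors above. Cst3, which encodes cystatin C, differed by -0.016 ± 0.20 (log2, SE) and was not called.

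The epithelium's junction genes were sparse at this depth. Of 12 listed genes 6 could be tested, and 4 were called higher. Genes rare outside members can pass the low-count filter through the member sums alone. Without that filter 5 of the 12 were called higher. Cldn2, the pore-forming claudin of leaky epithelia, had 11, 3, 4 and 25 UMIs in members, or 87.0, 40.2, 187 and 239 CPM, against at most 2.01 CPM elsewhere, and rose by 7.35 ± 0.51 (SE, adjusted p = 3.13e-44, edgeR). Cldn1 rose by 5.66 ± 0.55 with 8, 1, 4 and 11 UMIs, and Spint2, an inhibitor of serine proteases on epithelia, by 3.02 ± 0.26 with 58, 10, 11 and 55 UMIs. No UMI of Cldn7 or Cdh1 was found among 327109 UMIs of members, which allows up to 9.17 CPM (3 counts, counting error only).

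Among transcription factors 6 of 10 could be tested and 5 were called higher, or 3 of 6 without trained 1. Sox9 and Id3 were the ones that lost the call there, and Sox9 lost it under 3 other alternatives. Msx1 rose by 5.30 ± 0.45 (log2, SE), with levels of 198, 53.6, 187 and 182 CPM in members against 2.83 to 4.43 CPM elsewhere. Otx2, needed for the tissue to form, had 13, 3, 1 and 8 UMIs in members and rose by 4.78 ± 0.53. Foxj1, the regulator of motile cilia, stood at 134, 107, 93.5 and 95.6 CPM against 3.67 to 6.86 CPM and rose by 4.46 ± 0.47. Of 12 genes of cilia 10 could be tested and 8 were called higher, among them Pifo (5.30 ± 0.54) and Mlf1 (5.04 ± 0.52, both log2 with SE). These genes are shared with ependymal cells, and 11, 3, 2 and 7 members also reached 3 UMIs over 5 ependymal genes. Ccdc153, Tmem212 and Dynlrb2 are in both lists. The 12 genes summed to 1044, 897 and 899 CPM in members of trained 1, trained 2 and untrained 2. In spots outside the members that reached 3 UMIs over the ependymal genes they summed to 1807, 2131 and 3546 CPM. The shared genes help to set that level. How much of the cilia signal was ependymal was not tested.

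By size, and beside the listed genes, 2900040C04Rik had the largest difference among genes with at least 10 UMIs in the members of every section. It stood at 459, 134, 467 and 516 CPM in members against 3.25 ± 2.00 (SD, n = 4) CPM elsewhere and rose by 6.81 ± 0.33 (SE, adjusted p = 3.90e-89, edgeR). Calml4, a calmodulin-like gene, followed Ecrg4 and Ttr, at 6.22 ± 0.32. Pltp, a phospholipid carrier of lipoproteins, rose by 2.71 ± 0.26 and Dbi, a binding protein for acyl-CoA, by 1.76 ± 0.20. Of the 460 genes called higher, 69 differed by over 4 on the log2 scale and 348 had UMIs in the members of all 4 sections. For 291 the levels of members and of other spots did not overlap. These counts were taken among called genes only, with no share over all genes tested, so they add no support to the calls.

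**Figure D5:**
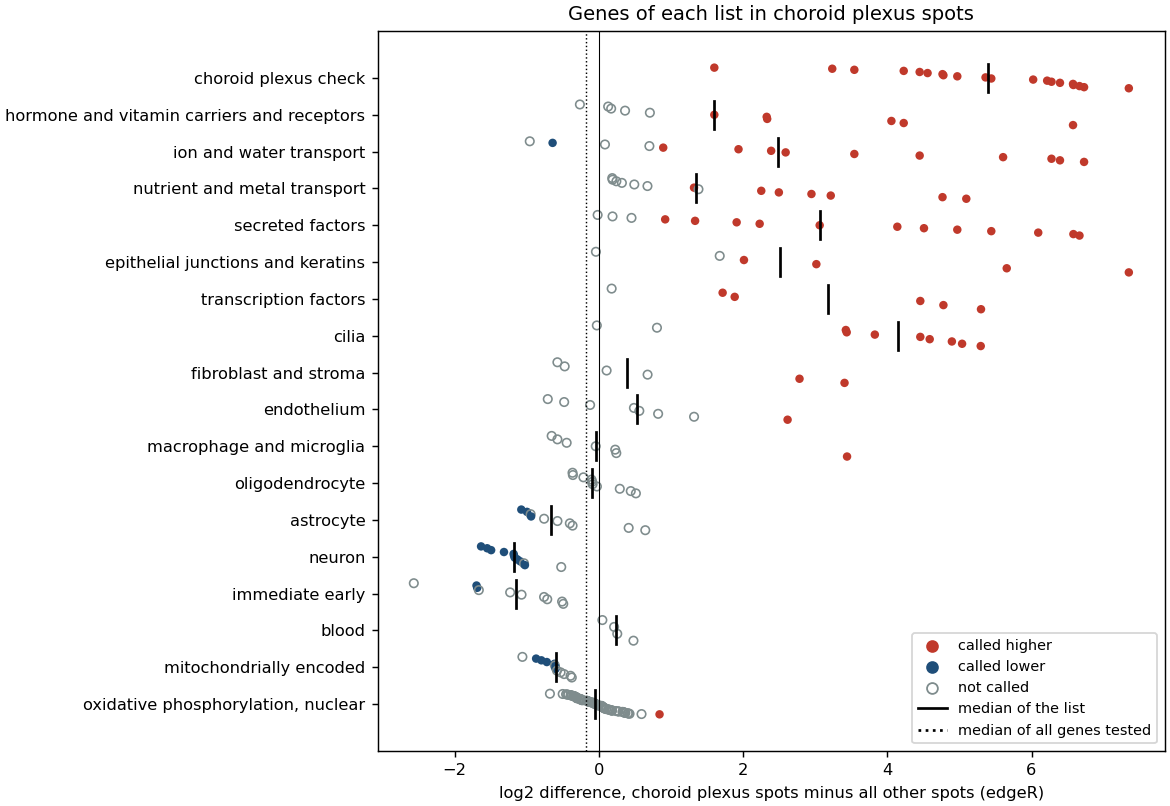
Log2 difference of each tested gene between choroid plexus spots and all other spots (edgeR, 8 sums), 1 point per gene and 1 row per list, filled where called higher (red) or lower (blue), with the median of the list as a bar and that of all genes tested (-0.17) as a dotted line. All 20 choroid plexus genes are red, 10 of 12 neuron genes are blue, and the oligodendrocyte list holds no call.

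Other cell types of the choroid plexus left few UMIs. Of 10 fibroblast and stroma genes 6 could be tested and 2 were called higher, Dcn, which encodes decorin (16, 0, 2 and 12 UMIs in members), and the collagen gene Col1a2 (9, 0, 1 and 5 UMIs). Of 10 endothelial genes 8 could be tested and Emcn, endomucin, was called higher with 4, 0, 1 and 8 UMIs. Plvap, which marks fenestrated capillaries, had 10, 0, 1 and 6 UMIs and was not called (adjusted p = 0.325, edgeR). Of 12 macrophage and microglia genes 7 could be tested and Cd74, the class II invariant chain, was called higher with 10, 0, 1 and 10 UMIs. Trained 2 had 0 UMIs of all 4 called genes. The Emcn call was lost without untrained 2 (adjusted p = 0.464, edgeR), which left 0 endothelial calls, and the Col1a2 call without trained 1 (adjusted p = 0.285, edgeR). Of 5 blood genes, the hemoglobins among them, 4 could be tested and 0 were called by edgeR. The microglial genes P2ry12, Cx3cr1, Csf1r and C1qa were not called, and Lyve1 was at 0 in the members of all sections.

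Neuronal transcripts were lower in choroid plexus spots but not absent. Of 12 neuron genes, all tested, 10 were called lower, and their summed level was 3717, 4862, 4534 and 3117 CPM in members against 9657, 8532, 10080 and 9886 CPM elsewhere. Snap25, a synaptic vesicle fusion gene, stood at 925, 1380, 1449 and 1023 CPM in members against 2932, 2757, 2838 and 2806 CPM and fell by 1.31 on the log2 scale (adjusted p = 8.45e-09, edgeR). Slc17a7, the vesicular glutamate transporter of cortex and hippocampus, fell by 1.63 and Nrgn, a postsynaptic calmodulin-binding gene, by 1.55. Of 10 astrocyte genes 3 were called lower, Slc1a2 and Slc1a3, which take up glutamate, and Aldoc. The Slc1a3 call was lost with DESeq2, without trained 1 and without untrained 2. Fewer cells of a type in a spot and less RNA per cell cannot be told apart in these sums.

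Oligodendrocyte genes were not called in either direction (0 of 10), but 3 of the 10 were called lower, with a list median of -0.70, when members were taken at 5 or more UMIs. Their summed level split the sections. It was 2515, 12350, 3552 and 4293 CPM in members against 4424, 7328, 4854 and 4902 CPM elsewhere, higher in the members than elsewhere in trained 2 only. Among 10 immediate early genes, which neurons switch on with activity, Arc and Egr1 were called lower in members. Arc had 8, 1, 0 and 4 UMIs in members, a pooled 3.18-fold lower level, and Egr1 had 6, 7, 1 and 7, a pooled 3.39-fold lower level. The other 8, Fos and Npas4 among them, were not called.

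Genes with no UMI in any member made up 10 of the 578 genes called lower. Neurod6, a transcription factor of cortical and hippocampal pyramidal neurons, stood at 55.7 ± 6.76 CPM (SD, n = 4) elsewhere and was at least 5.91-fold lower in members, taking 3 counts over all members as the limit (adjusted p = 1.39e-05, edgeR). By the same limit Gpc5, a glypican of astrocytes, was at least 3.28-fold lower and Bdnf, a neurotrophin of excitatory neurons, at least 2.32-fold lower. The Neurod6 call was lost at a threshold of 2 UMIs, and the Gpc5 call with DESeq2, at 2 UMIs, without trained 1 and without untrained 2. The Bdnf call was lost under 6 alternatives, among them DESeq2 (adjusted p = 0.193) and leaving out trained 1, trained 2 or untrained 2. Such bounds are set by the size of the member sums.

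The 13 mitochondrially encoded genes all lay below 0 and 6 were called lower, with a median log2 difference of -0.60. Mt-Co1 and mt-Co2, the catalytic subunits of complex IV, fell by 0.72 and 0.80 on the log2 scale, and mt-Co2 stood at 7354, 6778, 8460 and 5775 CPM in members against 14770, 6854, 14237 and 13463 CPM elsewhere. Trained 2 was low in the other spots, while its members lay among those of the other sections. Without trained 1 or without untrained 2 none of the 13 was called, without trained 2 there were 11 calls and in members that touch another member 11. DESeq2 called 2, and edgeR called 11 without the low-count filter and 10 at a threshold of 5 UMIs. The 76 nuclear genes of oxidative phosphorylation had a median of -0.051 and 1 call, Ndufa1, which rose by 0.84 ± 0.21 (SE, adjusted p = 0.00188, edgeR). This call was lost without trained 1 (adjusted p = 0.149, edgeR) and without untrained 2 (adjusted p = 0.279, edgeR). The epithelium is known for its many mitochondria.

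Ependymal spots, with at least 3 UMIs over Ccdc153, Tmem212, Rarres2, Mia and Dynlrb2, were compared with members after spots that met both rules were left out. Untrained 1 had no such ependymal spot and dropped out, leaving 20, 9 and 15 members against 19, 22 and 9 ependymal spots in trained 1, trained 2 and untrained 2. EdgeR called 10 of 976 genes (1.02%), 7 higher and 3 lower in choroid plexus spots. Ttr stood at 161711, 9741 and 142954 CPM in members and 4707, 11885 and 8864 CPM in ependymal spots. The members were not higher in trained 2, where 5 of these 9 members touched no other member. The log2 difference of Ttr was 3.43 ± 0.73 (SE, adjusted p = 0.00761, edgeR). Enpp2 rose by 2.89 ± 0.53 from 455, 1547 and 886 CPM in ependymal spots to 10870, 1445 and 10038 CPM in members, and again members were not higher in trained 2.

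Lower than in ependymal spots were Nnat, which encodes the membrane protein neuronatin (-1.53 ± 0.26), Mlc1, a gene of astrocytes and ependyma (-1.56 ± 0.37), and Dbi (-1.39 ± 0.28, all log2 with SE). Levels of these 3 genes did not overlap. Dbi was thus higher in choroid plexus spots than in the rest of the section and lower than in the ventricle lining. The remaining calls were Ecrg4 and, named because they complete the 10, Trpm3, Ppp1r1b, Ppp3ca and Hpca, of which Trpm3 is an ion channel of the choroid plexus and the others are known from neurons. DESeq2 called 0 genes (19 at an unadjusted p under 0.05), edgeR called 0 without untrained 2 and 50 without trained 2, and none of the 10 kept its call under all alternatives.

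Meningeal spots, with at least 3 UMIs over Slc6a13, Slc22a6, Col1a1, Col1a2 and Lum, numbered 3, 6, 3 and 9 once spots of both rules were left out. Of 354 genes 40 were called (11.3%), 16 higher and 24 lower in choroid plexus spots. The calls numbered 13 of 258 genes without untrained 2 and 66 of 349 without trained 2. Ttr stood at 180854, 28852, 162421 and 213887 CPM in members against 1165, 1461, 736 and 2391 CPM in meningeal spots and rose by 6.34 ± 0.75 (SE, adjusted p = 1.10e-14, edgeR). Enpp2 rose by 5.06 ± 0.36 (log2, SE), with no overlap. Ecrg4 and Spint2 were also called higher, with 297 and 125 UMIs in members against 2 and 1 UMIs in meningeal spots, too few to size the difference. The lactate transporter chaperone Bsg rose by 1.45 ± 0.27 (log2, SE), with overlapping levels, and lost its call at a threshold of 2 UMIs and without untrained 2.

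Ptgds, prostaglandin D synthase and a major product of the meninges, separated these tissues most in the other direction. It stood at 2456, 1045, 1402 and 1752 CPM in members against 40955, 20227, 46708 and 50382 CPM in meningeal spots, a fall of 4.37 on the log2 scale (adjusted p = 1.26e-27, edgeR). Igf2, which both tissues make, was 0.91 lower in choroid plexus spots (adjusted p = 0.0432, edgeR), a call that 7 alternatives removed. Mbp and Mobp, both myelin genes, were called higher in choroid plexus spots than in meningeal spots, and both were highest in the members of trained 2.

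Whether training changed the choroid plexus was asked in the member sums. With 2 sections a condition, edgeR called 0 of 1515 genes (0%), 31 of them at an unadjusted p under 0.05, and DESeq2 called 0, with 1 at an unadjusted p under 0.05. Ttr stood at 187261 and 28852 CPM in the trained members and at 162421 and 203419 CPM in the untrained, a log2 difference of -0.77 ± 0.97 (SE, adjusted p = 0.999, edgeR). The direction rested on trained 2. Without it, Ttr differed by 0.11, and without trained 1, with trained 2 as the only trained section and the spread taken from the untrained sections, by -2.93. Of the choroid plexus genes 18 could be tested, and 17 lay below 0, with a median of -0.54 against 0.027 over all genes. In members that touch another member the median was -0.064, and without trained 2 it was 0.094.

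The 5 genes with the smallest p were Fam107a, Acot7, Srsf2, Pcp4 and Cldn2, each with an adjusted p of 0.999 (edgeR). Cldn2 stood at 87.0 and 40.2 CPM in trained members and 187 and 239 CPM in untrained members. Its log2 difference was -1.80 ± 0.58 (SE, unadjusted p = 0.0129, edgeR), from 11, 3, 4 and 25 UMIs. Fam107a, an astrocyte gene, stood at 31.6 and 80.4 CPM against 187 and 239 CPM, and Pcp4, a calmodulin regulator of neurons, at 1368 and 2304 CPM against 982 and 803 CPM. These 5 genes did not pass the correction with all 4 sections. Calls after leaving out 1 section numbered 82 without trained 1, Cldn2, Pcp4, Ttr and Enpp2 among them, 8 without trained 2, Fam107a among them, 4 without untrained 1 and 0 without untrained 2.

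The training difference in members was also set against that in the rest of the same sections. EdgeR called 0 of 12476 genes (0%), with 315 at an unadjusted p under 0.05, and DESeq2 0, with 97. The smallest p was that of Tac2, which encodes neurokinin B and is strong in the medial habenula beside the third ventricle. The members held 28, 7, 0 and 0 Tac2 UMIs (adjusted p = 0.116, edgeR). It was called without trained 2, as the only gene, and as 1 of 3 genes with the replicate number as a block in place of the section, a fit that leaves both sums of a section unpaired. In trained 1, 19 of the 28 UMIs lay in the patch of 16 members, whose adjoining spots held 62, and 9 in a lone spot, whose adjoining spots held 30. The other large patch of that section, of 13 members, and its adjoining spots held 0. In trained 2, 5 of the 7 UMIs lay in a lone spot with 1 Ttr UMI, whose adjoining spots held 2. What part neighbouring tissue had in these UMIs was not tested. Nwd2 (22, 1, 0 and 0 UMIs), Necab2 (42, 11, 3 and 5), Tesc and Nlgn2 followed, each with an adjusted p of 1 (edgeR).

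The share of spots that met the rule was 1.08% (95% exact binomial interval 0.736 to 1.53) and 0.393% (0.203 to 0.685) in the trained sections and 0.339% (0.147 to 0.667) and 0.827% (0.519 to 1.25) in the untrained sections. These intervals cover counting error only. Each condition held 1 section with many members and 1 with few, and the ranges overlapped. The difference of the means, 0.154 percentage points, gave p = 0.667 in a two-sided exact permutation test over sections, where 2 against 2 cannot give less than 0.333. Each spot was also thinned to 1000 UMIs, with shallower spots left out. The shares were then 0.548% of 2189 spots, 0.0816% of 2451, 0.404% of 1237 and 0.456% of 1975. Trained 2 stood lowest there, and the untrained sections lay close together. The difference of the means was -0.115 percentage points after thinning, and its direction also changed with the section left out.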

How the data were processed

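The authors deposited filtered matrices of raw UMI counts per gene and spot with the spot positions. Their methods name Space Ranger and the mm10 genome, the deposited headers name Space Ranger 1.2.2, and the submitters' processing notes name mm39, GRCm39, STAR and Cell Ranger 8, so the build behind the counts was not settled and no coordinates are given. Groups came from the labels.

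Spots over tissue were kept without further filters. Spots of at least 3 UMIs over the 5 rule genes were members, and 2 members were said to touch at 1 array step. The members, the gene lists and the tests were chosen with earlier results of these data known. Counts were summed per section and class, since spots of a section are not replicates, and CPM was computed from these sums. Ttr takes up to 20.3% of a member sum, which lowers the CPM of every other gene in it, and the tests used TMM library sizes in place of plain totals.

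Tests were the quasi-likelihood F-test of edgeR 4.0.16 in R 4.3.3 after filterByExpr, with Benjamini-Hochberg adjustment over all genes tested and a threshold of 0.05, and with the section as a block wherever 2 classes of spots were compared. The 5 rule genes were not tested against other spots. The prior degrees of freedom were infinite in the comparisons with all other spots and with meningeal spots and in the difference of training effects, so that each gene took the trended spread there and its p-value rests on that trend. Alternatives were DESeq2 1.42.0, no low-count filter, thresholds of 2 and 5 UMIs, Ttr left out, other spots at least 4 array steps away, thinned sums and spots (1000 UMIs per spot), the replicate number as a block (in place of the section in the difference of training effects), and each section left out in turn. Shares were compared in SciPy 1.17.1 by an exact permutation test.

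Named genes were the examples of each list with the most UMIs or the largest change, and for each comparison the 10 called genes with the largest fold in each direction and at least 10 UMIs in every section of the higher class, or the 5 with the smallest p where fewer than 3 were called. On simulated counts with known changes, 58% of 100 genes changed by 2 on the log2 scale were recovered in the comparison of members with all other spots (11286 genes), 84% in that of trained with untrained members (1482 genes) and 6% in the difference of training effects (12450 genes). Changes were placed only in genes with higher mean fitted counts, with spreads taken from the fits. Recovery in sparser genes was not measured. Self-test calls in genes with no change numbered 12 in the comparison with ependymal spots (928 genes). The symbol 1500015O10Rik of the lists was matched to Ecrg4 through RefSeq. Some genes of the lists are counted with their list and not reported singly here.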

Additional observations from a re-analysis of the deposited data

How the results depend on the processing

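Each condition had 2 sections, and most members lay in trained 1 and untrained 2. Against all other spots DESeq2 called 551 genes (383 higher, 168 lower), and edgeR called between 424 and 1194 when 1 section was left out. Of 68 named genes in that comparison 51 were called under every alternative in which they could be tested, 17 lost the call under some and none changed direction. Against ependymal spots the calls numbered 0 with DESeq2, 27 without the low-count filter, 22 at 2 or more UMIs, 0 at 5 or more, 18 in members that touch another member, and between 0 and 50 with 1 section left out. Against meningeal spots they numbered 23 with DESeq2, 59 without the low-count filter (49 higher, 10 lower) and between 13 and 66 with 1 section left out, and 9 of 16 named genes kept the call wherever they could be tested. Between trained and untrained members there were 3 calls without the low-count filter and between 0 and 82 with 1 section left out. Without trained 2 the log2 difference of Ttr was 0.11, and without trained 1 it was -2.93. That of Enpp2 ranged from -2.08 without trained 1 to 0.24 without trained 2, and was 0.056 without untrained 2. The difference in training effects gave between 0 and 1 call with 1 section left out. The difference in the share of spots was -0.115 percentage points after thinning and ranged from -0.190 without trained 1 to 0.499 without trained 2, and it was also below 0 without untrained 1. The level of Ttr at 1 step, 18.9% of that in members on average over the sections, was 9.72% with members at 2 or more UMIs and 28.5% at 5 or more, and lay between 13.9% and 22.7% with 1 section left out. The cause of these shifts was not tested.

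With the replicate number as a block (replicate block), edgeR called 0 genes between trained and untrained members (49 at an unadjusted p under 0.05). In the difference of training effects it took the place of the section block, and edgeR called 3, a change that cannot be put down to the number alone. Same-numbered sections did not deviate together over 1515 genes (correlation -0.134), so the numbers were not taken to pair the mice. With the numbers crossed, an alternative added after the data were seen, edgeR called 0 genes (41 at an unadjusted p under 0.05). Calls in genes with few member UMIs are limited by depth.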
